A study of Mus musculus with 6 samples.

Results

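The MHC class II genes described here are 7 of the 24062 genes in a table of raw read counts from mouse retinae. They were chosen by name: H2-Aa, H2-Ab1 and H2-Eb1, which encode chains of the class II molecule, Cd74, which encodes the invariant chain, H2-DMa and H2-DMb1, which encode the peptide-loading molecule H2-DM, and Ciita, the transcriptional coactivator of the class. All 7 had a row in the table and all 7 passed the minimum summed count of 10, which left 16904 genes to test.

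Class II molecules are pairs of an alpha and a beta chain that carry peptides to the cell surface, where CD4 T cells read them. In the endoplasmic reticulum the invariant chain fills the groove of a new pair and directs it to endosomes. There cathepsins cut the invariant chain down and H2-DM exchanges its last fragment for a peptide. Professional antigen-presenting cells such as dendritic cells, B cells and macrophages express these genes, and resting microglia, the resident macrophages of the retina, have little of them. Interferon gamma induces CIITA, which acts at class II promoters through a complex of RFX, CREB and NF-Y proteins.

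The study asked what loss of HELLS, a chromatin remodeling protein, does in a mouse model of retinoblastoma. One library was made from each of 3 retinae of Chx10-Cre Rb1 lox/lox p107-/- Hells lox/lox mice (TKO) and each of 3 retinae of Chx10-Cre Rb1 lox/lox p107-/- controls (DKO), all at postnatal day 21 on a background given as C57BL/6 in the labels and C57BL/6N in the methods of the study. Both groups thus lacked p107 in every cell and lost Rb1 wherever Cre was active, and they differed in the floxed Hells alleles. Chx10-Cre is active in retinal progenitors in a mosaic pattern, so each retina also held cells that did not recombine, and leukocytes do not descend from these progenitors. Animals of both sexes were used in the study. The labels do not say whether the retinae of a group came from different animals, so the p-values measure only the spread between these samples.

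Each library held between 10343907 and 14203098 counts. Where 3 values are given for a group, they are those of its replicates 1, 2 and 3 in this order. Hells fell in TKO retinae, with a log2 fold change of -2.91 and no overlap between the groups (adjusted p = 0.00359, by the quasi-likelihood test of edgeR with Benjamini-Hochberg adjustment, as for every edgeR p below). Rb1, floxed in both groups, was at 0.34 on the log2 scale (edgeR adjusted p = 0.0388), and Rbl1, which encodes p107, was at 0.13 (edgeR adjusted p = 0.839). The tissue label held in every library, where 10 rod genes summed to between 124100 and 733400 normalized counts, which are counts scaled to a common library size. All 10 rod genes were higher in TKO retinae, and TKO replicate 3 (362100) and DKO replicate 3 (236700) lay nearest to the other group. TKO replicate 2 stood apart in 10 lens genes, at 3520 normalized counts against 528.9 to 628.4 in the other TKO retinae and 106.2 to 111.2 in DKO retinae.

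The genes of the class II chains and of the invariant chain were lower in every TKO retina than in any DKO retina, while the H2-DM genes and Ciita overlapped between the groups. A gene is called differentially expressed here when its adjusted p is at most 0.05, its absolute log2 fold change at least 1 and its mean normalized count at least 10. By these criteria Cd74, H2-Aa, H2-Ab1 and H2-Eb1 were called lower, 4 of the 7 genes, and 0 were called higher. Of all 16904 genes tested, 6.35% were called, 4.38% lower and 1.97% higher. The groups did not overlap, with TKO lower, in the same 4 genes, where 20.6% of all genes tested showed this, 18% had TKO higher without overlap and 38.6% had no overlap in either direction. The median log2 fold change was -1.83 over the 7 genes and -0.011 over all genes tested.

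**Figure D1:**
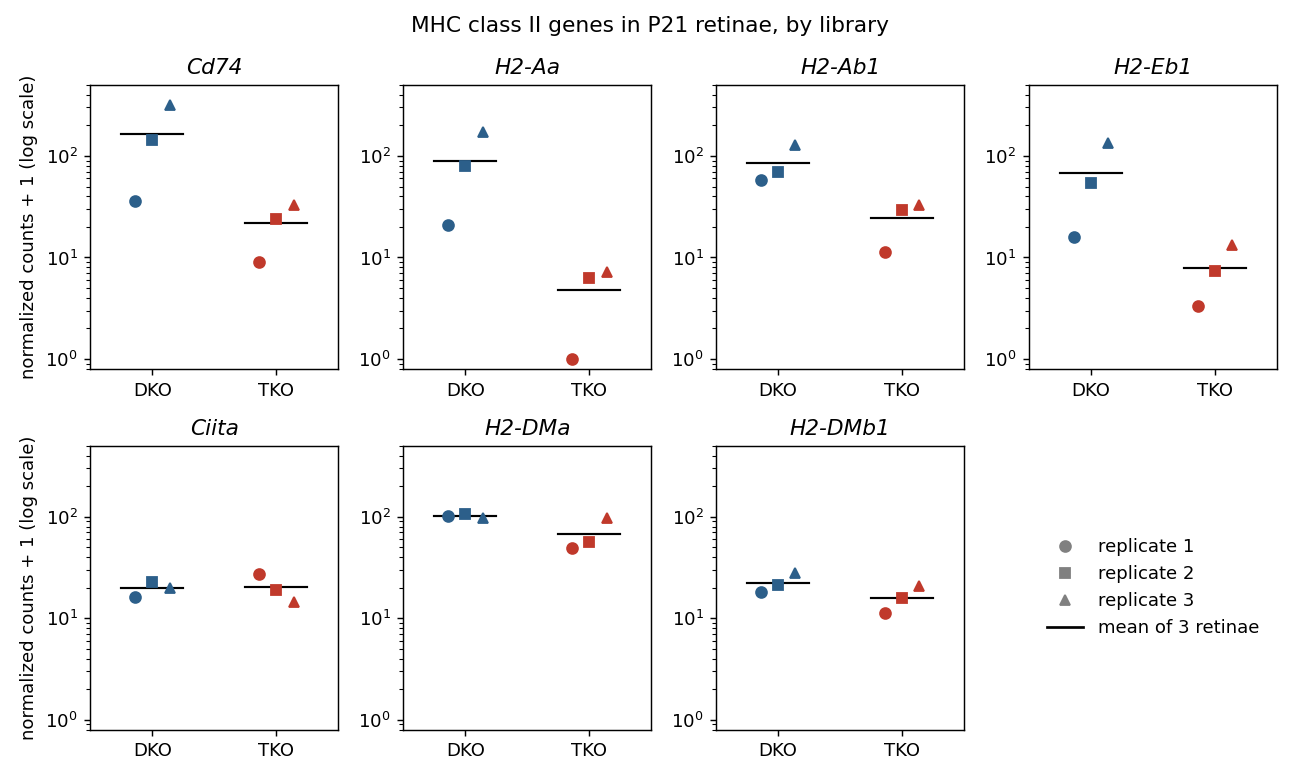
Normalized counts plus 1 (log scale) of the 7 MHC class II genes in each retina, with replicates as circles, squares and triangles and a bar at the mean of 3 retinae per group. For Cd74, H2-Aa, H2-Ab1 and H2-Eb1 the TKO points (red) all lie below the DKO points (blue), and the H2-Aa point at the bottom is the library with 0 counts. Ciita, H2-DMa and H2-DMb1 overlap between groups.

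H2-Aa encodes the alpha chain of the class II molecule I-A, the only classical class II molecule that C57BL/6 mice make. It had 0, 5.26 and 6.14 normalized counts in the TKO retinae and 19.8, 77.9 and 169 in the DKO retinae. The 3 TKO libraries together held 10 reads on the gene, and the count of 0 in TKO replicate 1 allows up to 3 counts. The log2 fold change was -4.51 (95% interval -6.69 to -2.34, standard error 0.949, edgeR adjusted p = 0.0173). Among the 741 genes called lower it had rank 3 from the most negative fold change.

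H2-Ab1 encodes the beta chain that pairs with the product of H2-Aa. The TKO retinae had 10.3, 28.4 and 31.9 normalized counts, and the DKO retinae had 56.5, 68.3 and 127. No TKO retina reached the lowest DKO retina. Its log2 fold change of -1.83 (95% interval -2.86 to -0.81, standard error 0.448, edgeR adjusted p = 0.0282) had rank 283 among the genes called lower, and of the 4 called genes it fell least.

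H2-Eb1 encodes the beta chain of a second class II molecule, I-E. C57BL/6 mice carry a defective gene for its alpha chain, listed as H2-Ea-ps, which had 0 counts in each of the 6 libraries. H2-Eb1 itself had 2.29, 6.31 and 12.3 normalized counts in the TKO retinae against 15.1, 52.5 and 132 in the DKO retinae. TKO replicate 3 and DKO replicate 1 thus lay close to each other, at 10 and 16 reads. The log2 fold change was -3.26 (95% interval -5.18 to -1.33, standard error 0.840, edgeR adjusted p = 0.0341), rank 33 among the genes called lower. An annotated antisense gene, Gm20513, overlaps H2-Eb1, and the strand setting of the read counting is not given in the sources used here.

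Cd74, the invariant chain that guides class II pairs to endosomes, had 8.03, 23.2 and 31.9 normalized counts in the TKO retinae. The DKO retinae had 34.8, 143 and 317. DKO replicate 1 was thus only slightly above the highest TKO retina, while DKO replicate 3 was far above all others. The log2 fold change was -2.97 (95% interval -4.74 to -1.20, standard error 0.773, edgeR adjusted p = 0.0351), rank 51 among the genes called lower.

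These 4 calls depended on single retinae. None of the 7 genes was called when TKO replicate 1, TKO replicate 2 or DKO replicate 2 was left out. All genes called also fell in those fits, to 700, 476 and 471, from 1074 with every retina. Leaving out DKO replicate 3 kept 1 call (H2-Aa), DKO replicate 1 kept 3 and TKO replicate 3 kept all 4. There, all genes called numbered 1280, 500 and 1500. The counts given below for other lists with 1 retina left out come from the same fits. In these fits the log2 fold change stayed negative, from -3.45 to -2.08 for Cd74, -4.98 to -3.65 for H2-Aa, -2.09 to -1.40 for H2-Ab1 and -3.89 to -2.28 for H2-Eb1, with adjusted p from 0.0220 to 0.119 (edgeR).

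**Figure D2:**
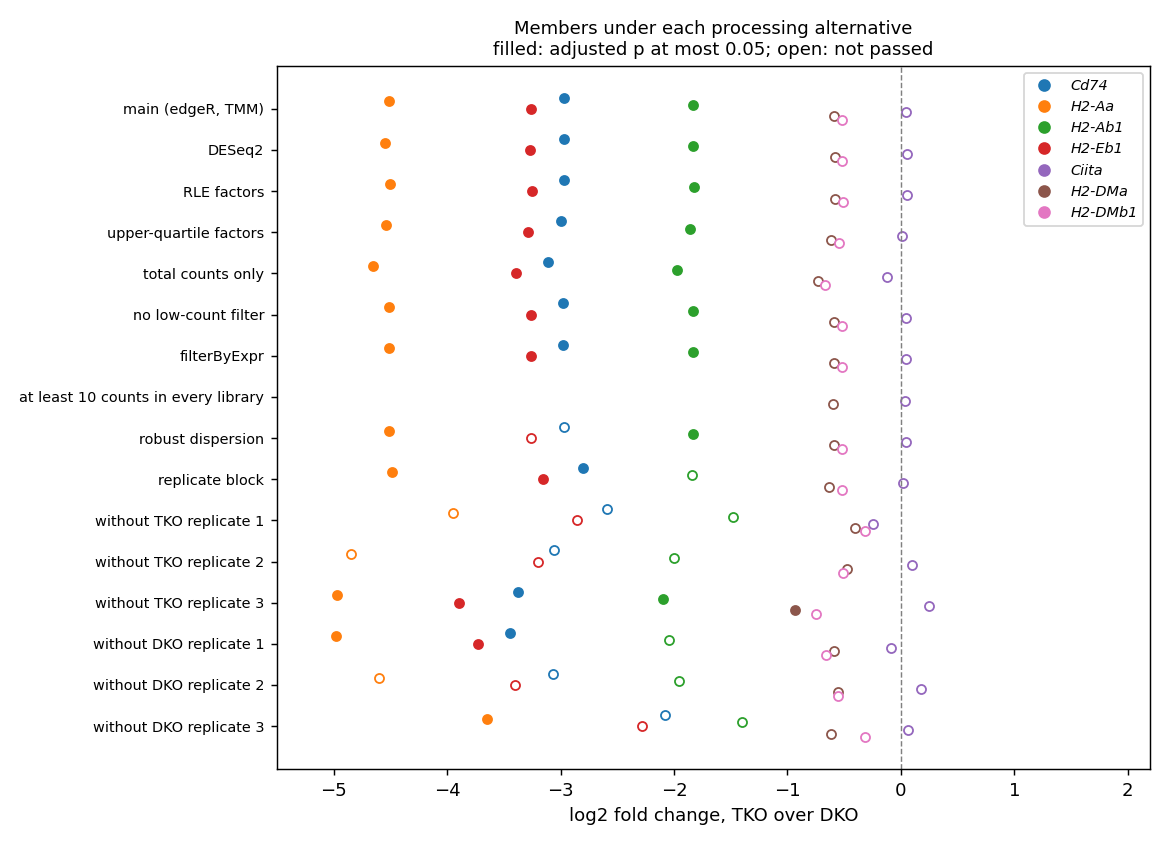
Log2 fold change, TKO over DKO (horizontal axis), of the 7 genes under the main test and each alternative (rows), with filled points where the adjusted p was at most 0.05. Cd74, H2-Aa, H2-Ab1 and H2-Eb1 stay to the left of 0 in every row that could test them, and their points turn from filled to open in several of the rows that leave out 1 retina.

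The spread among DKO retinae was wide for the same genes. The highest DKO value was 9.10 times the lowest for Cd74, 8.56 times for H2-Aa, 8.77 times for H2-Eb1 and 2.25 times for H2-Ab1, against a median of 1.19 times over 12903 genes with a mean normalized count of at least 50. Expressed as the SD in percent of the DKO mean, the spread was 86.4% for Cd74, 84.7% for H2-Aa, 89.8% for H2-Eb1 and 45% for H2-Ab1, with a median of 9.04% over the same 12903 genes. H2-DMa, at 4.62%, was below that median. The spread among TKO retinae was wide too, at 57.4% for Cd74, 87.4% for H2-Aa, 72.1% for H2-Eb1 and 49.2% for H2-Ab1. There the median was 9.52%, and H2-DMa was at 38.4%. H2-Aa and H2-Eb1 had means under 50 and were not among the 12903 genes. DKO replicate 3 was the highest and DKO replicate 1 the lowest retina of its group for each of the 4 called genes, and TKO replicate 1 was the lowest retina of all for each of them.

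The genes whose log2 library-scaled counts, over the 6 libraries, were most like those of Cd74 were Ak5 (Pearson r = 0.995), Psmd6 (0.994), Tapbpl (0.989), Nr1h4 (0.988) and Slc25a1 (0.982), out of the same 12903 genes. Their log2 fold changes were small, from -0.49 to -0.13, and none was called. The r with Cd74 was 0.996 for H2-Eb1, 0.982 for H2-Aa, 0.946 for H2-Ab1, 0.925 for H2-DMb1, 0.721 for H2-DMa and -0.094 for Ciita. These values describe 6 libraries that share their depth and scaling between genes, and no test was made of them.

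H2-DMa and H2-DMb1 encode the chains of H2-DM, which releases the invariant chain fragment from the groove. H2-DMa had 48.2, 55.8 and 95.7 normalized counts in the TKO retinae and 99.8, 104 and 94.97 in the DKO retinae. TKO replicate 3 lay within the DKO range and the other TKO retinae lay below it. The log2 fold change of -0.59 (standard error 0.263, 95% interval -1.19 to 0.016) did not pass (edgeR adjusted p = 0.160), but it passed without TKO replicate 3, at -0.93 (adjusted p = 0.0174). H2-DMa overlaps Brd2 on the opposite strand, so reads on the shared stretch may be assigned to either gene.

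H2-DMb1 had 10.3, 14.7 and 19.6 normalized counts in the TKO retinae and 16.9, 20.1 and 26.8 in the DKO retinae. The ranges overlapped, and the log2 fold change of -0.52 (95% interval -1.34 to 0.30, standard error 0.357, edgeR adjusted p = 0.346) was within the spread between replicates. Its near-identical copy H2-DMb2 held at most 4 reads in a library. How reads that align to both copies were counted is not given in the sources used here, so the split between the copies is uncertain.

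Ciita, without which class II genes are scarcely transcribed, had 26.4, 17.9 and 13.5 normalized counts in the TKO retinae and 15.1, 21.9 and 19.0 in the DKO retinae. The highest and the lowest of the 6 values were both TKO retinae. The log2 fold change was 0.05 (95% interval -0.75 to 0.85, standard error 0.349, edgeR adjusted p = 0.939), and its sign turned to -0.12 when only total counts were used for scaling. The interval includes changes of up to 0.75 downward and 0.85 upward on the log2 scale. Changes within these limits were thus not distinguishable at a depth of 11 to 25 reads per library. Ciita overlaps Dexi on the opposite strand, so reads on the shared stretch may be assigned to either gene.

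Divided by the length of all annotated exons, the mean levels in DKO retinae were 98.2 ± 84.8 normalized counts per kb for Cd74, 34.2 ± 30.8 for H2-Eb1, 32.7 ± 14.7 for H2-Ab1, 28.9 ± 1.34 for H2-DMa, 23.4 ± 19.8 for H2-Aa, 12.7 ± 2.98 for H2-DMb1 and 1.96 ± 0.360 for Ciita (SD, n = 3). Only the last neighbours in this order, H2-DMb1 and Ciita, differed by more than the larger SD of the pair. In TKO retinae the levels were 19.3 ± 7.41 normalized counts per kb for H2-DMa, 12.5 ± 7.20 for Cd74, 9.17 ± 4.51 for H2-Ab1, 8.86 ± 2.77 for H2-DMb1, 3.58 ± 2.58 for H2-Eb1, 2.02 ± 0.687 for Ciita and 1.00 ± 0.874 for H2-Aa (SD, n = 3). H2-DMb1 and H2-Eb1, and Ciita and H2-Aa, differed by more than that spread, and the other neighbours were not. H2-Aa went from rank 5 of 7 in DKO to rank 7 of 7 in TKO retinae, and H2-DMa from rank 4 to rank 1. With the length of the longest transcript in place of all exons, H2-Ab1 moved to rank 2 in both groups, at 69.2 in DKO and 19.4 in TKO retinae.

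Ciita lies on chromosome 16 from 10480059 to 10528418, and the H2 genes lie within the H2 complex on chromosome 17 of GRCm38. Along the chromosome they follow each other as H2-DMa (34119541 to 34139101), H2-DMb1 (34153072 to 34160230), H2-Ab1 (34257689 to 34269419), H2-Aa (34282744 to 34287823, minus strand) and H2-Eb1 (34305867 to 34316674). H2-Aa is the only one of them on the minus strand. The 3 genes of the chains, all called lower, are neighbours in this order, and the 2 H2-DM genes, which were not called, are nearest to each other.

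RefSeq promoter windows of GRCm38.p6, each 250 bases before to 50 bases after an annotated start, were at hand for 4 of the 7 genes, H2-Aa, H2-Eb1, H2-DMa and H2-DMb1. The windows are shown because the chain genes moved together and share a known promoter layout, an X box bound by RFX and CREB and, nearer the start, a Y box bound by NF-Y. Printed 5′ to 3′ on the strand of the gene are 120 bases just before the start of H2-Aa and H2-Eb1, which were called lower, and, for H2-DMa, which was not, the 110 bases that end 10 bases before the start of its first window, where an exon of another transcript begins. Capitals mark a GNAAC (an RFX site core) and an ATTGG (the NF-Y core CCAAT read on the other strand) that follow each other with 20 to 35 bases between.
H2-Aa (chr17:34287824-34287943, minus strand): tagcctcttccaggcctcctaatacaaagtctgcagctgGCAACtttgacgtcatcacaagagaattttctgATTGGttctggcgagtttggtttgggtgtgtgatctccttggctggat
H2-Eb1 (chr17:34305747-34305866, plus strand): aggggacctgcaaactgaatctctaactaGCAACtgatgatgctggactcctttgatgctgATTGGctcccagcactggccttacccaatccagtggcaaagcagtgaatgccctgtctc
H2-DMa (chr17:34122712-34122821, plus strand): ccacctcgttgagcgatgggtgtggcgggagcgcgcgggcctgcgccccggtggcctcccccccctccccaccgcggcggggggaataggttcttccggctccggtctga

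The spaced pair lay between 81 and 44 bases before the start in H2-Aa and between 91 and 55 bases before it in H2-Eb1, with 28 and 27 bases between its elements. H2-DMb1, which was not called, had it between 94 and 57 bases before the start. Neither window of H2-DMa held it, although the annotation has other starts of this gene outside both windows. The pair was found, on either strand, in 2.67% of all 32851 windows, and it was defined after these promoters had been read. It was also present in the windows of H2-Oa and H2-Ob, so its presence did not separate called genes from the others.

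Single motifs were common in all windows, and each was searched on both strands. The Y box core CCAAT was in 37.4% of the 32851 windows and in those of H2-Aa, H2-Eb1, H2-DMb1 and the second of H2-DMa. TGACG, the X2 core bound by CREB, was in 20.8% of windows and, among these genes, in that of H2-Aa alone, where it overlapped its own match on the other strand. AGCAAC, a short X1 core, was in 14.8% of windows and in that of H2-Eb1, and the X1 core CCTNGNNAC was in 15.8% and in that of H2-DMb1. The interferon-stimulated response element, searched as its core repeat (3.44% of windows), was in no window of the 4 genes.

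**Figure D3:**
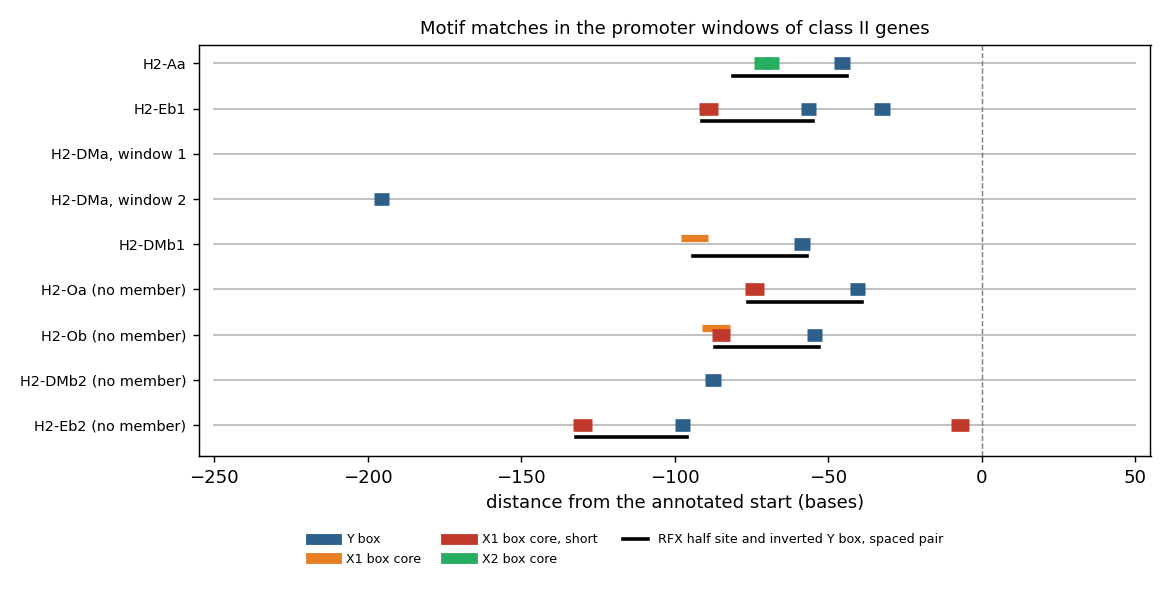
Motif matches in the promoter windows of the 4 matched genes and of H2-Oa, H2-Ob, H2-DMb2 and H2-Eb2, by distance in bases from the annotated start (dashed line), with coloured boxes for motifs and black lines for the spaced pair. The pair spans 81 to 44 bases before the start in H2-Aa and 91 to 55 in H2-Eb1, and neither window of H2-DMa has it.

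Of the genes that work with the class, those for the transcription factors at class II promoters showed no call. Of 7 such genes, 0 passed an adjusted p of 0.05 in the edgeR test, where 9.2% of all genes tested passed lower and 7.35% higher, and their median log2 fold change was -0.01. The 3 with the largest mean count were Creb1, Nfyc and Nfya, with log2 fold changes of 0.23, 0.10 and 0.12. At an unadjusted p under 0.05 there were 2 (Creb1, and at -0.26 Rfxap, which encodes a subunit of RFX), and DESeq2 passed 0 as well. Rfx5, which encodes another RFX subunit, was at -0.01. H2-Oa and H2-Ob encode an inhibitor of H2-DM and held at most 8 reads in a library, and neither passed (log2 fold changes -0.60 and -0.78).

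Among 8 tested genes of interferon gamma signalling, 1 passed, lower, where 9.2% of all genes tested did, and 0 passed lower when TKO replicate 2 or DKO replicate 1 was left out. It was Irf1, an interferon-induced transcription factor that acts on the Ciita gene, with 106.6, 164 and 188 normalized counts in the TKO retinae and 307, 263 and 400 in the DKO retinae. The groups did not overlap, and its log2 fold change was -1.08 (edgeR adjusted p = 0.0181, standard error 0.230). Of the most abundant genes of the list, the kinase genes Jak1 and Jak2 had log2 fold changes of 0.09 and 0.11 and did not pass. Ifng, the gene of the cytokine itself, had at most 1 count in any library.

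Of 12 genes for the proteases and turnover of the class II pathway, 4 passed lower and 1 higher, where 9.2% and 7.35% of all genes tested did. Ctss encodes cathepsin S, which makes the last cuts in the invariant chain. It had 458, 516 and 782 normalized counts in the TKO retinae and 1009, 1433 and 937 in the DKO retinae, without overlap and with a log2 fold change of -0.95 (edgeR adjusted p = 0.0252). Ctsz and Ctsh, which encode other cathepsins, fell by 0.69 and 0.63 on the log2 scale, and Ifi30, which encodes a thiol reductase that unfolds antigens, fell by 0.95. These 4 changes were under the minimum fold of a call, and 1 gene of the list passed lower without TKO replicate 2 or DKO replicate 2, 2 without TKO replicate 1 or DKO replicate 1.

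The gene that rose was March1, which encodes a ubiquitin ligase that removes class II molecules and CD86 from the cell surface. It had 938, 1009 and 611 normalized counts in the TKO retinae and 317, 269 and 536 in the DKO retinae, a log2 fold change of 1.19 (edgeR adjusted p = 0.0229, standard error 0.273). TKO replicate 3 and DKO replicate 3 lay nearest to the other group, as they did for the rod genes. Which cells of the retina held its reads was not tested. The 3 most abundant proteases, Ctsd, Ctsb and Ctsl, had log2 fold changes of -0.37, -0.05 and -0.07 and did not pass.

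Of 9 tested co-stimulation and adhesion genes, 2 passed, both lower, against 9.2% of all genes tested, and 1 without TKO replicate 2, DKO replicate 1 or DKO replicate 2. Icam1, an adhesion molecule for T cells, had 21.8, 32.6 and 41.7 normalized counts in the TKO retinae and 106, 114 and 173 in the DKO retinae (log2 fold change -2.03, edgeR adjusted p = 0.00731). Icosl, the ligand of the T cell receptor ICOS, had a log2 fold change of -1.22 (edgeR adjusted p = 0.0271). Cd80 and Cd86, the ligands of CD28, were at -0.70 and -0.69 and did not pass. Cd83, the most abundant of the list, was at -0.46 and did not pass either, nor did Tnfsf9, at -0.29. Genes named from a list other than its 3 most abundant were chosen after their values were seen.

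In the class I pathway, which presents peptides of the cell's own proteins, 8 of 9 genes passed, all of them lower and called, where 4.38% of all genes tested were called lower, among them B2m (log2 fold change -1.54), H2-K1 (-1.51) and H2-D1 (-1.05). For these the count of 8 was the same with each retina left out in turn, where that of the class II genes fell to 0.

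**Figure D4:**
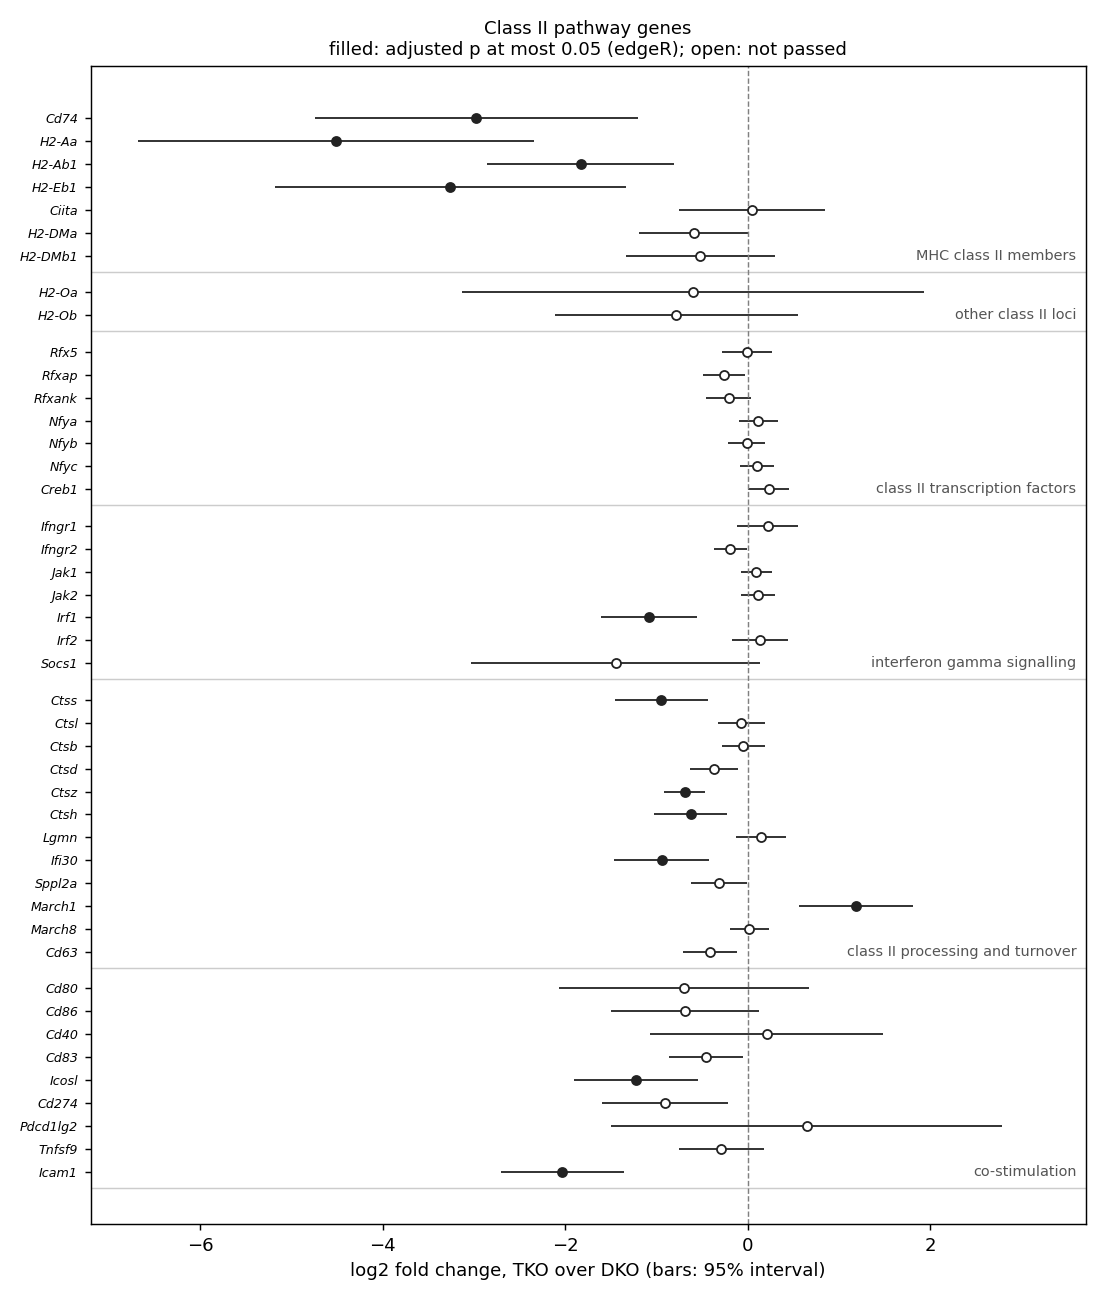
Log2 fold change, TKO over DKO, with 95% intervals (bars), of the 7 MHC class II genes and of genes tested from 5 lists of the same pathway, with filled points where edgeR's adjusted p was at most 0.05. The intervals of Cd74, H2-Aa, H2-Ab1 and H2-Eb1 lie to the left of 0 and are wide, and those of the class II transcription factors are narrow and near 0.

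In whole retina, fewer cells of a type and less RNA per cell cannot be told apart, so marker genes of the cells that could carry class II molecules are given beside the class II values. For 15 microglia and macrophage genes the summed level was 2096 to 3804 normalized counts in TKO and 4409 to 6832 in DKO retinae, without overlap. Of the 15, 7 passed lower (9.2% of all genes tested did) and 0 higher, with a median log2 fold change of -1.08. Leaving out TKO replicate 2 or DKO replicate 2 reduced that count to 1, and it was 2 without DKO replicate 1. Csf1r, the receptor on which microglia depend, fell by 1.03 and C1qb, a complement gene, by 1.17. P2ry12 and Tmem119, which mark resting microglia, were at 0.04 and -0.35 and did not pass. Siglech, of the same list, was higher in TKO retinae without overlap (log2 fold change 0.77, not passed). The subset called the microglia genes alone here was P2ry12, Tmem119, Cx3cr1, Sall1, Siglech and Gpr34. Whether other cells held reads of these genes was not tested. Their sums overlapped, at 394.5 to 617.3 normalized counts in TKO and 583.7 to 985.8 in DKO retinae. Cx3cr1, which alone of them passed, held most of the sum in DKO retinae. It had 159, 232 and 349 normalized counts in the TKO retinae and 552, 627 and 395 in the DKO retinae.

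The summed level of 8 genes shared by all leukocytes was 470.2 to 703.2 normalized counts in TKO and 1047 to 1323 in DKO retinae, and 7 of the 8 passed lower (9.2% of all genes tested did), among them Laptm5 (log2 fold change -1.34), Coro1a (-0.59) and Ptpn6 (-1.16). That count was 1 without TKO replicate 2 or DKO replicate 2, and 2 without TKO replicate 1 or DKO replicate 1. Monocyte and border macrophage genes summed to 367 to 605 normalized counts in TKO and 727.5 to 1121 in DKO retinae. Of 10 tested, Lyz2 and Ms4a7 passed, both lower (9.2% of all genes tested did), with a log2 fold change of -2.17 for Lyz2 and with 2.29, 3.16 and 14.7 normalized counts against 23.5, 66.5 and 69.1 for Ms4a7. The list did not move one way. Lyve1, a gene of border macrophages and lymphatic vessels, had 315, 276 and 285 normalized counts in the TKO retinae and 219, 254 and 267 in the DKO retinae, higher in TKO without overlap (log2 fold change 0.24, not passed), and held most of the sum in TKO replicates 1 and 2. Mrc1 was at -2.27 (edgeR adjusted p = 0.0533) and Cd163 at 0.17, and neither passed.

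Ccr2, the chemokine receptor of circulating monocytes, had 0, 1.05 and 0 normalized counts in the TKO retinae and 0, 11.4 and 32.8 in the DKO retinae. DKO replicate 1 thus had no read on it and DKO replicate 3 the most, and Ccr2 did not pass (edgeR adjusted p = 0.0774).

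Of 7 tested dendritic cell genes, 3 passed lower (Itgax, Zbtb46 and Batf3), where 9.2% of all genes tested did. The list summed to 111.2 to 179.2 normalized counts in TKO and 272 to 310.8 in DKO retinae, and Flt3 was at 0.01. Xcr1, of the same list, had 9.17, 5.26 and 4.91 normalized counts in the TKO retinae and 1.88, 0.875 and 4.32 in the DKO retinae, higher in TKO without overlap (log2 fold change 1.40, not passed). B cell genes summed to 25.23 to 38.04 normalized counts in TKO and 63.03 to 88.42 in DKO retinae. Of 5 tested, 1 passed lower (Pax5, against 9.2% of all genes tested). Pax5 had 0, 0 and 1 reads in the TKO and 40, 34 and 25 in the DKO libraries. The B cell surface gene Ms4a1 had at most 1 count in any library. T and NK cell genes summed to 247.9 to 308.5 normalized counts in TKO and 234.8 to 306.8 in DKO retinae. Of 5 tested, 1 passed lower (Cd4, against the same 9.2%). Cd247 held most of the T and NK sum in every library, at 195 to 264 in TKO and 149 to 215 in DKO retinae. Cd3e and Gzmb, which mark T cells and cytotoxic cells, had 0 counts in every library, and Cd3d had at most 2. No gene of the monocyte, dendritic or T cell list passed lower when TKO replicate 2 or DKO replicate 2 was left out, and without DKO replicate 1 none of the dendritic or T cell lists did. The part of any of these cells in the class II values was not tested.

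Within the DKO group, the class II values did not follow the microglia and macrophage list. DKO replicate 3, the highest retina for the 4 called genes, had the lowest summed level of that list in its group, 4409 normalized counts against 5772 and 6832 in DKO replicates 1 and 2. Some other lists had DKO replicate 1 lowest and DKO replicate 3 highest, as the class II genes had. The monocyte and border macrophage genes did so at 727.5, 1117 and 1121 normalized counts in the DKO retinae, the class I genes at 6893, 7316 and 8735, the Muller glia genes at 65290, 69620 and 71720 and the other class II loci at 2.82, 14.9 and 17.3. The 8 retinal pigment epithelium genes did so too, at 274.8, 1023 and 1378, but their sum was higher in TKO retinae (960.9 to 3120) than in DKO replicate 1. Most other lists had another order, among them the leukocyte list (1047, 1323 and 1077) and the dendritic cell list (293.6, 310.8 and 272). With 3 retinae, 2 lists can share an order without any link between them. What these levels contributed was not tested.

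Relative to the microglia and macrophage list of the same library, H2-Aa alone kept its groups apart. Against the microglia genes alone H2-Ab1 did too. The share of all genes that keep their groups apart in such ratios was not computed. Before this scaling, 20.6% of all genes tested had TKO lower without overlap. H2-Aa rested on 0, 5 and 5 reads in the TKO libraries. H2-Aa was at 0%, 0.192% and 0.161% of the microglia and macrophage list in the TKO retinae and at 0.342%, 1.14% and 3.84% in the DKO retinae. Cd74 was at 0.383%, 0.846% and 0.839% in the TKO retinae and at 0.603%, 2.09% and 7.19% in the DKO retinae. DKO replicate 1 thus lay within the TKO range for Cd74, as it did for H2-Eb1 (0.261% against 0.109% to 0.323% in TKO retinae). H2-Ab1 was at 0.492% to 1.04% in TKO and 0.978% to 2.88% in DKO retinae, with overlap as well.

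The 3 genes that were not called had a higher mean ratio in TKO than in DKO retinae, with overlap. H2-DMa was at 2.30%, 2.04% and 2.52% of the microglia and macrophage list in the TKO retinae and at 1.73%, 1.53% and 2.15% in the DKO retinae, where TKO replicate 2 lay below DKO replicate 3. Against the leukocyte list, H2-DMa was at 10.2% to 13.6% in TKO and 7.88% to 9.52% in DKO retinae. Ciita was at 1.92% to 5.61% in TKO and 1.44% to 1.76% in DKO retinae, and both were higher in TKO without overlap. The leukocyte sum itself was lower in TKO retinae (470.2 to 703.2 against 1047 to 1323 normalized counts). The counts of H2-DMa and Ciita overlapped. Against the microglia genes alone, H2-DMa, H2-DMb1 and Ciita all overlapped. Mean ratios there were 12.8% in TKO and 12.5% in DKO retinae for H2-DMa, 2.87% and 2.81% for H2-DMb1, and 4.10% and 2.36% for Ciita. H2-Aa remained lower in TKO without overlap against the leukocyte list too, at 0% to 1.06% in TKO and 1.89% to 15.7% in DKO retinae.

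Summed over the 7 genes, the class II level was 5.03%, 5.54% and 5.55% of the microglia and macrophage list in the TKO retinae and 4.47%, 7.14% and 20.1% in the DKO retinae. The TKO retinae lay close together and between DKO replicates 1 and 2. The difference of the mean log2 ratios, TKO minus DKO, was -0.68, smaller than the SD of 1.11 in the DKO group, and without DKO replicate 3 it was -0.07.

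**Figure D5:**
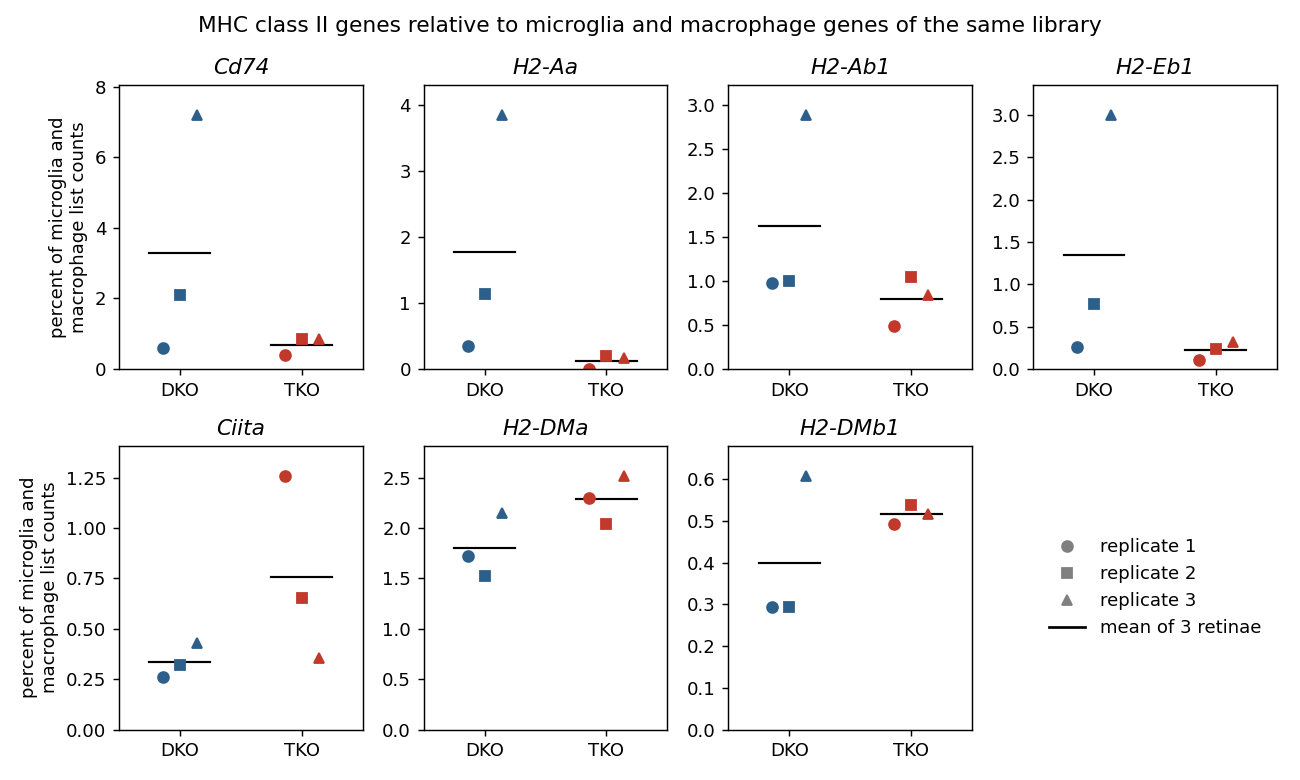
Level of each of the 7 MHC class II genes in percent of the summed normalized counts of 15 microglia and macrophage genes in the same retina (linear axes from 0, scaled per gene), with a bar at the mean of 3 retinae. DKO replicate 3 (blue triangle) is the highest point for Cd74 (7.19%), H2-Aa (3.84%), H2-Ab1 (2.88%) and H2-Eb1, and the TKO points of H2-DMa (2.04% to 2.52%) lie at or above most DKO points.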

How the data were processed

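RNA-seq of 3 TKO and 3 DKO retinae was analysed. The authors' methods name STAR alignment to GRCm38 and HTSeq, whereas the submitters' processing notes name TopHat2, featureCounts and DESeq2. The deposited values are raw counts per gene symbol, not normalized. Per the methods, the aligner allowed 3 alignments per read. How such reads were counted is not given in the sources used here, so near-identical copies are uncertain.

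The members and lists were chosen with earlier results of these data known. Genes with a summed count under 10 were removed, and 16904 were tested with edgeR 4.0.16 in R 4.3.3 (TMM, quasi-likelihood F test, Benjamini-Hochberg adjustment over all genes tested). The fold minimum of 1, mean count of at least 10 (by DESeq2 size factors) and adjusted p of 0.05 follow the study's methods. Counts were normalized by TMM-scaled library sizes, each taken relative to the mean size. Standard errors were derived from the F statistic and the fold change, and a count of 0 allows 3 counts. Limits and intervals on counts cover counting error only. A chi-square of 8.97 to 26.6 per degree of freedom separated replicates, above sampling noise. On simulated counts, edgeR recovered 100 of 100 genes changed 2-fold and 100 of 100 changed 4-fold, and 10 of 16571 unchanged genes passed. The changed genes were drawn from genes with higher counts, and every gene was given the same small dispersion. The simulation therefore does not give the power or error rate for the class II genes, whose counts were low and spread was wide.

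Named genes were the 7 class II genes, Hells, Rb1, Rbl1, B2m, H2-K1, H2-D1, the 3 most abundant tested genes of a list and any defining marker at 0, and the 5 genes most like Cd74. Some genes and motifs that these rules name are not reported here. Counts passing the test in a list are given beside the share over all genes. Gene positions are from GENCODE M21 (GRCm38), promoters from RefSeq (GRCm38.p6). Alternatives were DESeq2 1.42.0, other scalings, filters, dispersion, thresholds and ratio denominators, the replicate block, and each retina left out.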

Additional observations from a re-analysis of the deposited data

How the results depend on the processing

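Of all genes tested, 1074 were called, and 4 of the 7 class II genes. All genes called numbered 90 with the replicate block, 2721 without a minimum fold and 421 at an adjusted p of at most 0.01, and 471 to 1500 with 1 retina left out. The class II count was 2 with robust dispersion estimates (H2-Aa and H2-Ab1), 0 at an adjusted p of at most 0.01 and 0 to 4 with 1 retina left out. It was also 0 among genes with at least 10 counts in every library, where Ciita and H2-DMa alone could be tested. Under DESeq2, the other scalings and the other filters it was 4. With total counts as the scale, the median over all genes moved to -0.17 (log2).

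Replicate numbers did not pair the retinae, since same-numbered retinae deviated together with r = 0.116, -0.0925 and -0.193. With the number as a block 3 class II genes were called, and H2-Ab1 was lost (adjusted p = 0.0566, edgeR). Ciita changed sign with total counts (-0.12), without TKO replicate 1 (-0.24) and without DKO replicate 1 (-0.08), went up to 0.24 without TKO replicate 3 and did not pass in any fit. The difference of the mean log2 ratios of the summed class II genes, TKO minus DKO, was -0.62 against leukocyte genes and -0.99 against microglia genes alone. Against the microglia and macrophage list it was -1.16 to -0.07 with 1 retina left out. Low counts, 0 to 27 reads for the called genes in TKO libraries, limit each estimate. The cause of these changes was not tested.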
